A study of Anser sp. with 4 samples.

Results

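The step from 5 to 10 days after molt in goose ventral skin was read from 2 arrays, the 10-day array set over the 5-day array, of 4 arrays in all. The skin came from female Wanxi-White geese in a study of feather regeneration, and the remaining arrays held skin from 1.5 days after molt and from before molt. No group carried a treatment or genetic change, and age at sampling is not given in the labels. The labels name 6 birds penned apart and do not say which bird gave which sample or whether RNA was pooled, so each time is 1 array with no replicate and no p-value is given. Of 31550 transcript identifiers on the arrays, 18821 stood well above background at 10 days, at 5 days or at both and were compared, 14594 of them through 1 probe and 4227 through 2 or more.

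A feather grows from a follicle in which epidermal cells at the base divide, are laid out as barb ridges under the direction of the dermal papilla, and then harden by filling with corneous beta-proteins (feather keratins). Skin sampled while feathers are being replaced therefore holds growing follicles beside ordinary epidermis, dermis, blood vessels, fat and muscle. The array carries probes designed for chicken, so goose RNA met probes whose sequence may differ from its own. A ratio compares each probe with itself. Levels and shares of signal are also set side by side between probes below. There a brighter probe need not mean a more abundant transcript.

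The files pair the identifiers with 0 gene symbols. No transcript is therefore given a gene name or a role below, the defining markers of skin and of other cell types could not be read, and probe sequences were not used here. In bulk skin, fewer cells of a type and less RNA per cell cannot be told apart. Levels are log2 processed signals minus the 75th percentile of the same array, so that 0 is that percentile. Ratios are 10 days minus 5 days on that scale, where 1 is 2-fold, 2 is 4-fold and 4 is 16-fold, and an identifier called 2-fold higher or lower is one at or beyond that ratio. A value not well above background was raised to the lowest level well above background on its array where it lay below it. A ratio with such a side is a bound. That lowest level was -4.01 at 10 days, -3.65 at 5 days, -4.14 at 1.5 days and -4.06 before molt.

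The ratio of a probe depended on where the probe sat on the array, which bears on every count below. The surface was divided into 8 blocks, 4 down the rows and 2 across the columns. The share of probes 2-fold higher at 10 days was 19.2% in the block of last rows and first columns and 3.61% in the lowest block. The share 2-fold lower was 14.2% in the block of first rows and first columns and 3.95% in the lowest block. The 4 blocks of columns 43 to 85 were more alike, with 5.98% to 9.14% higher and 4.29% to 5.30% lower. Ensembl transcripts were spread evenly, making up 42.3% to 43.8% of the probes in every block, and the spread of other kinds of identifier was not read. Among probes whose mean level over both arrays was above the 75th percentile, the median ratio ran only from -0.18 to -0.07 over the blocks, but the share 2-fold higher still ran from 3.01% to 11.0%. Some results are therefore also given for identifiers whose probes all lie in columns 43 to 85, a choice made after the pattern was seen. Where a result is not given for those columns, the part of the surface in it was not tested.

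**Figure D1:**
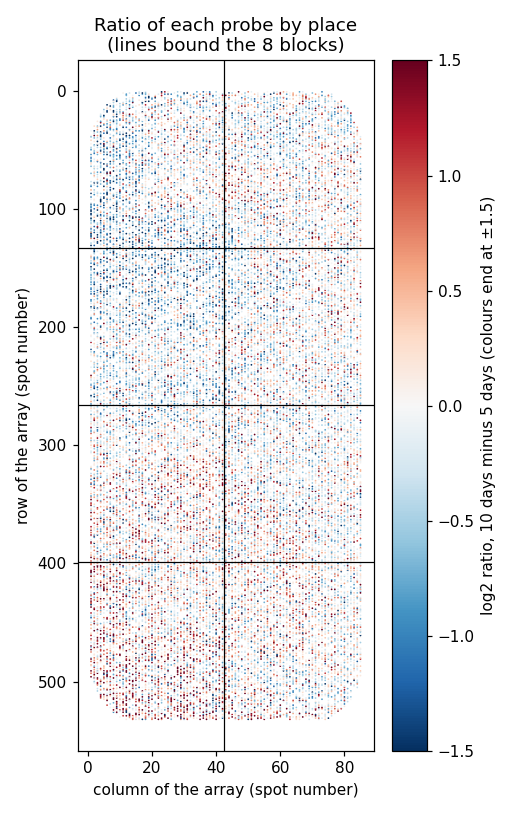
Each dot is 1 probe in use, placed by its column (horizontal axis) and row (vertical axis) on the array and coloured by its log2 ratio, 10 days minus 5 days, with red higher at 10 days and blue higher at 5 days. Red gathers in the last rows of columns 1 to 42, where 19.2% of probes were 2-fold higher, and blue in the first rows of the same columns, while columns 43 to 85 are paler and more even.

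Most identifiers stood close to equal at 10 and 5 days, and the larger a difference was, the more often it was upward. Within 2-fold were 15874 of 18821 identifiers (84.3%), and the quartiles of the ratio were -0.42 and 0.35 around a median of -0.06. A ratio of 2-fold or more upward was found for 1686 identifiers (8.96%), and one of 2-fold or more downward for 1261 (6.7%). At 4-fold there were 473 higher (2.51%) and 144 lower (0.765%), and at 16-fold 60 higher (0.319%) and 2 lower (0.0106%). These counts moved by more than 1.5 times with the treatment of dim signals. At 4-fold there were 121 higher and 6 lower after normexp correction, and 933 and 405 with dim probes at their own value. At 16-fold there were 39 higher and 0 lower after normexp correction, and 114 and 19 with dim probes at their own value. The ratio ran from -5.60 to 9.27.

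The excess of upward ratios was also seen in the more even part of the surface. Of 8350 identifiers with every probe in columns 43 to 85, 688 (8.24%) passed 2-fold upward and 404 (4.84%) downward. In columns 1 to 42, of 7924 identifiers, 896 (11.3%) were higher and 762 (9.62%) lower. These shares join blocks of opposite direction. Down the rows of columns 1 to 42, the probes 2-fold higher made up 4.82%, 3.61%, 9.80% and 19.2% by block. Those 2-fold lower made up 14.2%, 13.3%, 4.50% and 3.95%. The downward calls differed most between the sides, with 25 of 8350 (0.299%) 4-fold lower in columns 43 to 85 and 114 of 7924 (1.44%) in columns 1 to 42. The upward 16-fold calls were alike in number, 27 in columns 43 to 85 and 32 in columns 1 to 42. Of the 7391 identifiers with a mean level above 0 in the step, 438 (5.93%) were 2-fold higher and 355 (4.8%) lower, wherever they lay.

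The balance of directions at 2-fold rested on the scaling, while the balance at 4-fold leaned upward under each scaling tried. Of identifiers past 2-fold, 57.2% were higher at 10 days. The share was 48.9% after median centring, which moved the median of all ratios to -0.15, and 70.8% after scaling on spike-in RNA, which moved it to 0.10. After normexp background correction it was 80.6%, with a median of all ratios of -0.20. Past 4-fold, 76.7% were higher, against 71.4% after median centring, 85.1% after spike-in scaling and 95.3% after normexp correction. It was 63.1% where the local background was evened over the surface by subtraction, a setting chosen after seeing the data. The spike-in RNA itself, over 6 probes with 32 spots each, shifted by -0.16 ± 0.06 (SD over the 6 probes) relative to the 75th percentile, 10 days minus 5 days.

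**Figure D2:**
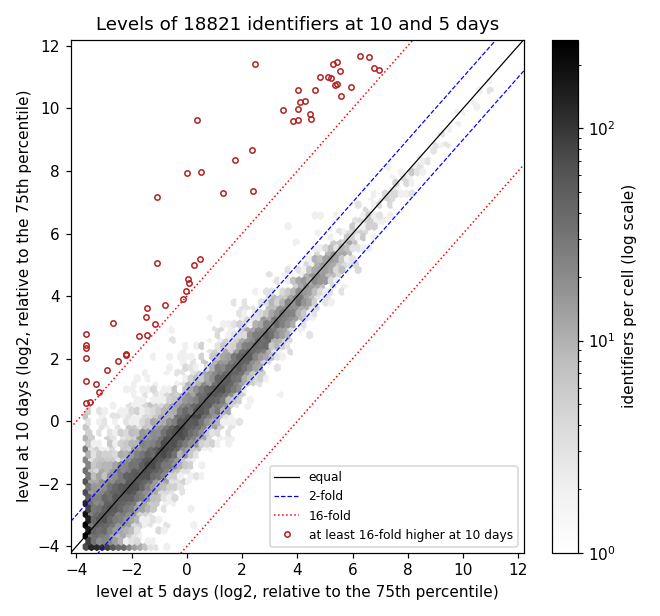
Level at 10 days (vertical) against level at 5 days (horizontal) for 18821 identifiers, both in log2 relative to the 75th percentile of the array. Darker cells hold more identifiers, dashed and dotted lines mark 2-fold and 16-fold, and the red circles are the 60 identifiers 16-fold higher at 10 days. A group at levels of about 10 at 10 days stands well clear of the diagonal, and only 2 identifiers lie beyond the 16-fold line on the lower side.

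A set of very bright identifiers stood far higher at 10 days, and among the 100 brightest identifiers it was separate from the others. The 100 brightest identifiers were taken by their mean level on the arrays from 1.5 days and before molt, which take no part in the step. Of these, 24 passed 16-fold upward in the step, with ratios from 4.29 to 6.57 and a median of 5.71. A single further one had a ratio of 3.53. The other 75 had ratios between -1.21 and 0.50, with a median of -0.21, so that among these 100 the values between 0.50 and 3.53 were empty. The empty range depends on the cut at 100. Of the 384 identifiers with a mean level over 6 on the same 2 arrays, 46 were 2-fold higher, 39 were 4-fold higher and 32 were 16-fold higher. The share of identifiers 16-fold higher was 0.319% over all 18821.

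The 24 lay between 9.60 and 11.68 at 10 days, with a median of 10.72. At 5 days they lay between 3.48 and 6.95, with a median of 5.17. The choice of identifiers 16-fold higher in the step fixes part of the distance between the 2 times. Their medians over the 4 arrays were 11.20 in skin before molt, 9.05 and 5.17 at 1.5 and 5 days, and 10.72 at 10 days. The other 75 were those not 2-fold higher in the step, which fixes part of their evenness at 5 and 10 days. Their medians stayed level, at 9.61 in skin before molt, 9.59 at both 1.5 and 5 days, and 9.49 at 10 days.

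In signal, the 24 identifiers held 12.7% of the non-control signal of the 10-day array and 0.312% of that of the 5-day array. How the 24 were chosen fixes part of these shares. The share of the 24 was 3.46% at 1.5 days and 13.6% before molt. All 24 were read by 1 probe each, while 13 of the other 75 were read by 2 or more. The agreement of probes therefore cannot be checked on the 24. Their probes fell in 7 of the 8 blocks, and 7 of the 24 lay in columns 43 to 85, against 34 of the other 75. Of all 18821 identifiers compared, 8350 had every probe in those columns. The more even side of the surface thus held a smaller share of the 24, and the part of the surface in this was not tested. How many genes the 24 stand for is not known from the files.

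Taken over all levels, the 60 identifiers 16-fold higher at 10 days held 14.4% of the signal of the 10-day array and 0.325% of that of the 5-day array. The shares at these times follow in part from how the 60 were chosen. On the arrays outside the step, their share was 3.59% at 1.5 days and 15.03% before molt. The 1686 identifiers 2-fold higher held 19.6% of the signal at 10 days and 1.87% at 5 days, so the 60 made up the greater part of it at 10 days and a small part at 5 days. The 1261 2-fold lower held 2.49% at 10 days and 6.42% at 5 days.

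The 36 identifiers past 16-fold that were not among the 100 brightest covered a wide range of levels. At 10 days they lay between 0.60 and 11.43, and at 5 days between -3.65 and 2.48. Of the 60, 6 were not well above background at 5 days, and 4 were read by 2 or more probes. In each of those 4 every probe was 2-fold higher at 10 days.

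The share of identifiers past 2-fold varied with their level. Identifiers were binned by their mean level at 1.5 days and before molt. Those under -2 were 2-fold higher at 10 days in 9.74% and 2-fold lower in 8.60% of 5861 cases. From -2 to 0 the shares were 11% and 6.8% of 5533, and from 0 to 2 they were 7.38% and 5.64% of 3955. From 2 to 4 the shares were 6.07% and 4.31% of 2159, and from 4 to 6 they were 4.20% and 5.71% of 929. Above 6, 12.0% of 384 were higher, near the upward share from -2 to 0, and 3.12% were lower. This bin held 32 of the 60 identifiers past 16-fold. Outside that bin the upward and downward shares lay nearer to each other.

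Different probes of 1 identifier agreed on the ratio for bright probes far more than for dim ones. Repeated spots of 1 probe gave an SD of the ratio of 0.16, over 25 probes with at least 5 spots, every spot well above background. Between different probes of 1 identifier it was 0.57 over 4227 identifiers, 0.36 for the probes with a mean level above 0, and 0.74 for the dimmer ones. For the 14594 identifiers with a single probe in use no averaging lessens this error.

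The ratio on the first probe of an identifier, by order of probe name, was then compared with that on the second. Where the first probe was 2-fold higher (246 identifiers), the second was 2-fold higher too in 70 (28.5%), against 5.73% of second probes over all 4227 identifiers. Where the first was 2-fold lower (253), the second was too in 73 (28.9%), against 5.75% over all. Larger ratios on the first probe were not better matched. After a 4-fold higher first probe the second passed 2-fold in 22 of 73 (30.1%). The median ratio of the second probe was then 0.11, against 0.26 after a 2-fold higher first probe. The second probe was on the same side of 0 in 52.05%, against 62.2%. After a 4-fold lower first probe it was on the same side in 63.3%, against 78.7% after a 2-fold lower one.

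Where both probes had a mean level above the 75th percentile, agreement was closer. A 2-fold higher first probe was matched in 25 of 42 identifiers (59.5%), against 3.77% of second probes over all 1431 such pairs, and a 2-fold lower one in 39 of 82 (47.6%), against 4.12%. With at least 1 dimmer probe in the pair the shares were 22.1% of 204 and 19.9% of 171. Across identifiers the ratios of first and second probes correlated with Pearson r of 0.366 over all 4227 pairs, 0.618 over the 1431 bright pairs and 0.489 over the 1057 pairs with both probes in columns 43 to 85. These are correlations across identifiers read on the same 2 arrays, and identifiers are not replicates.

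**Figure D3:**
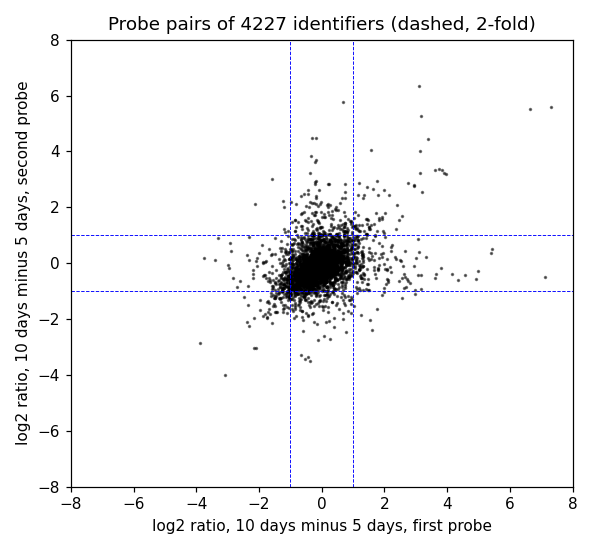
Ratio of 10 days to 5 days on the second probe (vertical) against the first probe (horizontal) of 4227 identifiers, both in log2, with dashed lines at 2-fold. Points in the outer corners are pairs past 2-fold together, and the points along the horizontal and vertical arms are pairs in which only 1 probe moved.

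Identifiers on which every probe passed 2-fold in 1 direction were collected next. There were 62 higher (1.47% of 4227) and 66 lower (1.56%), close to even, although 32 were higher and 7 lower after normexp correction and 81 higher and 41 lower after spike-in scaling. Identifiers with 2 or more probes were also called less often than those with 1 probe, with 3.97% higher and 3.83% lower against 10.4% higher and 7.53% lower. In 26 identifiers 1 probe was 2-fold higher while another was 2-fold lower.

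The 62 higher identifiers had ratios from 1.16 to 6.45 with a median of 1.71, and 21 passed 4-fold. Their median levels were 0.73 in skin before molt, -0.75 and -1.07 at 1.5 and 5 days, and 0.99 at 10 days. At 10 days 46 of the 62 were within 2-fold of their level before molt, 12 were above it and 4 below, where 87.85% of all 18821 identifiers were within 2-fold. The 5-day level was the lowest of the 4 in 50 of them, against 19.5% of all, and their choice as low at 5 days fixes part of that count.

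The 66 lower identifiers had ratios from -3.54 to -1.05 with a median of -1.37, and 7 passed 4-fold. Their median levels were 0.51 in skin before molt, 1.45 and 1.73 at 1.5 and 5 days, and 0.32 at 10 days. At 10 days 50 of the 66 were within 2-fold of their level before molt, 13 were below it and 3 above. The 5-day level was the highest of the 4 in 46 of them, against 23.5% of all 18821. As with the 62, the choice of these identifiers fixes part of that count.

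With no gene symbols, 4 identifiers are named, those with 2 or more probes whose least-moved probe had the largest ratio each way. NM_001039969 had levels of 3.67 and 1.94 on its 2 probes at 10 days and -3.68 and -4.57 at 5 days, where neither probe was well above background. With the main processing it was at least 87.5-fold higher at 10 days, with probe ratios of 7.32 and 5.58. After normexp correction its ratio was 2.95. On the other arrays its mean level was 0.45 at 1.5 days and 3.28 before molt, so the 10-day level of 2.80 stood within 2-fold of that before molt.

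CR389677 had probe levels of 3.00 and 1.89 at 10 days and -4.35 and -4.95 at 5 days, again with neither probe well above background at 5 days. With the main processing it was at least 68.1-fold higher at 10 days, with probe ratios of 6.64 and 5.54. After normexp correction its ratio was 2.98. Its mean level was -1.16 at 1.5 days and 1.76 before molt. Both identifiers were thus lower at 1.5 days than before molt, out of reach at 5 days and back at 10 days.

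NM_205336 went the other way, with a mean level of -3.35 at 10 days and 0.19 at 5 days over the 2 probes in use. Its probe ratios were -3.99 and -3.09, and the 10-day side of the smaller one is a bound. Its remaining probe was not well above background on any array. Its mean level was -2.27 at 1.5 days and -1.81 before molt, so the 5-day level was the highest of the 4.

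NM_205366 had a mean level of -3.32 at 10 days and 0.04 at 5 days, with probe ratios of -3.87 and -2.85, the first of them a bound at 10 days. Its level was -2.14 at 1.5 days and -3.26 before molt. The first probe was well above background neither at 10 days nor before molt, so the closeness of those levels rests on the other probe, at -2.63 at 10 days and -2.45 before molt.

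At 10 days most identifiers past 2-fold in the step stood within 2-fold of their level before molt, though fewer than among all identifiers. Of the 1686 2-fold higher than at 5 days, 1248 (74.0%) were within 2-fold of their level before molt, 208 were above it and 230 below. Of the 1261 2-fold lower, 836 (66.3%) were within 2-fold of it, 388 were below and 37 above. Over all 18821 identifiers 87.85% were within 2-fold, so both shares lay under that of all. The 144 identifiers 4-fold lower than at 5 days differed, since 90 of them (62.5%) were also 2-fold below their level before molt, against 7.23% of all 18821, and 117 had their lowest level of the 4 at 10 days, against 24.6% of all. The choice of identifiers low at 10 days fixes part of both counts. Of these 144, 114 had every probe in columns 1 to 42, against 7924 of all 18821. Their place on the array thus moved with this result, and its part in it was not tested.

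Among the higher identifiers the 5-day level was usually the floor of the series. It was the lowest of the 4 in 1133 of 1686 (67.2%) at 2-fold, 381 of 473 (80.6%) at 4-fold and 57 of 60 at 16-fold. Over all 18821 it was lowest in 19.5%. The choice of identifiers low at 5 days fixes part of this. At 5 days, 507 of the 1686, 161 of the 473 and 6 of the 60 were not well above background. The bound for such values was -3.65 at 5 days, -4.14 at 1.5 days and -4.06 before molt. Ranks and differences of dim values thus compare unlike bounds, and the part of this in the counts was not tested. The difference of 5 days minus 1.5 days varied by group, with a median of -0.35 for those 2-fold higher at 10 days, -0.76 at 4-fold and -3.25 at 16-fold. Over all 18821 the median difference was 0.0. In 50 of the 60 the 5-day level lay 2-fold or more under that at 1.5 days, against 2.72% of all, and here too the choice of identifiers low at 5 days fixes part of the values.

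**Figure D4:**
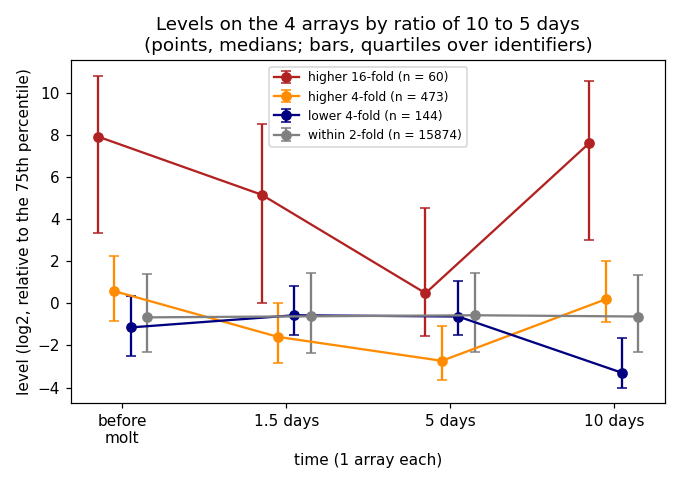
Median level (points) and quartiles over identifiers (bars) on each of the 4 arrays, 1 array a time, in log2 relative to the 75th percentile, for identifiers grouped by their ratio of 10 days to 5 days. The 60 identifiers past 16-fold start from a median of 7.95, stand lowest on the 5-day array (0.49) and have a median of 7.64 on the last, while those within 2-fold lie flat.

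The earlier change, from before molt to 1.5 days, was read on the other 2 arrays of the same slide. Most identifiers 2-fold higher in the step had been lower in that change. Its probes were those well above background on at least 1 of these 2 arrays. For 1 identifier they can therefore differ from the probes used in the step. Of the 1655 identifiers 2-fold higher at 10 days and compared in both, 1041 (62.9%) had been lower at 1.5 days than in skin before molt, past 2-fold, and 27 (1.63%) higher. Over all 18380 identifiers compared in both, 13.4% had been lower and 8.68% higher, much as over the whole 1.5-day comparison (13.5% lower and 8.28% higher). At 4-fold the number that had been lower was 372 of 467 (79.7%), and at 16-fold 59 of 60. Of the 1206 2-fold lower at 10 days, 396 (32.8%) had been higher at 1.5 days and 51 (4.23%) lower.

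The 1.5-day comparison also varied over the surface, with 6.72% to 22.2% of probes lower by block, so this was read again by place. In part it ran opposite to the step. Among identifiers read by 1 probe, the blocks with most lower in the step held 275 and 278. In them 17.5% and 12.7% of all were higher at 1.5 days, the largest shares of the 8 blocks. The block with most higher in the step (440) had 26.3% lower at 1.5 days. Columns 43 to 85 were not even here, with 11.3% to 28.5% lower by block. The part of the surface in the results below was not tested. In columns 43 to 85, 492 of 680 higher identifiers (against 15.9% of all) had been lower at 1.5 days, and 116 of 376 lower ones (against 7.24% of all) had been higher. In columns 1 to 42 the numbers were 495 of 874 (against 13.3% of all) and 243 of 735 (against 10.55% of all). Over the 8 blocks, among identifiers read by 1 probe, the share of higher identifiers that had been lower at 1.5 days ran from 41.4% to 82.4%. It was above the share of all identifiers lower at 1.5 days, which ran from 7.59% to 28.5%, in each of the 8 blocks. Across identifiers the Pearson r between the 2 ratios was -0.576 over 18380 and between -0.672 and -0.411 within the blocks. The points share a slide and, where the same probes were in use, a probe and its place on each array. Identifiers are not replicates.

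**Figure D5:**
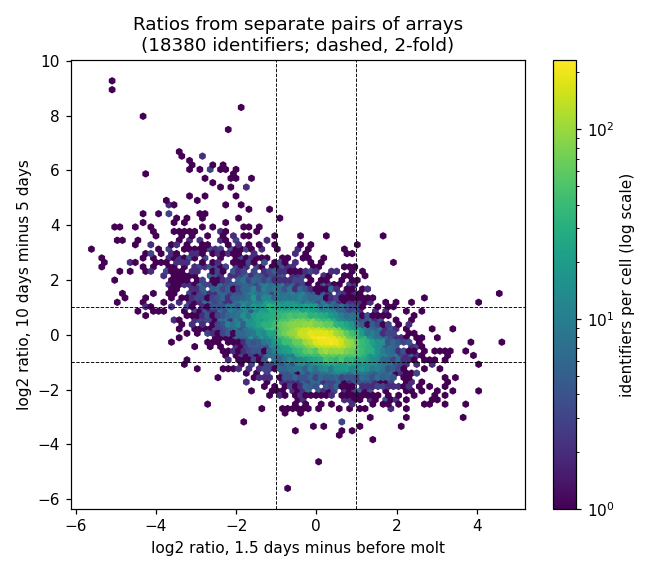
Ratio of 10 days to 5 days (vertical) against ratio of 1.5 days to before molt (horizontal) for 18380 identifiers, both in log2 and from separate pairs of arrays. Brighter cells hold more identifiers and dashed lines mark 2-fold. The cloud slopes downward, and the identifiers highest at 10 days lie to the left, among those that had been lower at 1.5 days.

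More identifiers were well above background only at 10 days than only at 5 days, and most of both groups stayed within 2-fold. At 10 days 1760 identifiers (9.35%) were well above background that were not at 5 days, and 816 (4.34%) were so at 5 days and not at 10 days. Most were near the limit, with a median level of -3.12 at 10 days for the 1760 and -3.02 at 5 days for the 816. Of the 1760, 507 were 2-fold higher and 161 were 4-fold higher, against 8.96% and 2.51% of all 18821. On the other arrays 916 of the 1760 were detected at 1.5 days and 1363 before molt, and 275 at neither. Of the 816, 367 were 2-fold lower and 54 were 4-fold lower, against 6.7% and 0.765% of all 18821. In both groups, detection at only 1 of the 2 times fixes the direction of these calls and part of their number. On the other arrays 638 of the 816 were detected at 1.5 days and 460 before molt, and 141 at neither. Over all 18821 the detected shares were 93.5% at 1.5 days and 94.8% before molt. The 5-day array was the dimmest, with 52.4% of non-control spots well above background against 55.2% at 10 days and a bound that lay 0.36 higher, and the part of this in the counts was not tested.

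The share past 2-fold also varied with the kind of identifier. Among identifiers starting NM_ 5.69% of 3566 were 2-fold higher and 5.86% lower. Of those starting XM_ 10.6% of 1113 were higher and 5.93% lower. Among Ensembl transcripts 8.67% of 8088 were higher and 6.53% lower. Identifiers starting BX, which are cDNA sequences, had the highest upward share of the kinds with at least 300 members, 12.9% of 889, with 8.21% lower. Of the 60 identifiers past 16-fold, 38 were Ensembl transcripts and 7 started with NM_. Of all 18821 compared, 8088 were Ensembl transcripts and 3566 started with NM_. With the 75th percentile scaling, the upward share at 2-fold exceeded the downward share in every kind compared except those starting NM_. Over all kinds, 57.2% of those past 2-fold were higher with this scaling and 48.9% after median centring. Calls were also more frequent with 1 probe (10.4% higher, 7.53% lower) than with 2 or more (3.97% and 3.83%). The part of scaling and of probe number in the differences between kinds was not tested.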

How the data were processed

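The 4 arrays, 1-colour with Cy3, were scanned on 1 slide. The authors' scanner files give spot intensity, and per the file headers were made with Agilent Feature Extraction 10.7.3.1 on a design annotated to chicken build galGal3. The processed intensity is deposited background-subtracted and not scaled between arrays. The authors' series table, in log2 units, served as an alternative only, since no source used here says how it was scaled.

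Spots flagged as non-uniform or population outliers on any array (39 probes) were left out, a choice of flags made after counts with the background outlier flags left out too had been seen, and 0 non-control spots were saturated. The log2 processed signal of the 43803 non-control spots was taken relative to the 75th percentile of the array, and 52.4% to 57.5% of these spots were well above background. Spots were averaged by probe, then, by identifier, over probes well above background at 10 days, 5 days or both. Calls were made at 2-fold, 4-fold and 16-fold. The number of arrays limits the precision, and the spread between probes holds no difference between birds. At most 2 identifiers each way were named, those with 2 or more probes in use and the largest ratio of the least-moved probe. The comparisons and lists were chosen with earlier results of these data known. The 26 gene lists could not be matched, since the files pair 0 identifiers with symbols, and no chromosome position was used. The counting was tested on simulated data made from brighter probes, all set as well above background, so the handling of dim signals was not tested. Software was Python 3.11.15 with numpy 2.4.6, pandas 2.3.3 and matplotlib 3.10.9, and limma 3.58.1 under R 4.3.3 for normexp correction (offset 50), run on median spot signals in place of mean signals.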

Additional observations from a re-analysis of the deposited data

How the results depend on the processing

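Leaving out a replicate was not possible, and the planned medians of gene lists were not run. No paired analysis was possible because each time has 1 array. The 8 counts of identifiers (2-fold, 4-fold and 16-fold each way, and every probe past 2-fold each way) all stayed within 1.5 times their value under median centring, quantile normalization, the authors' log2 table, no filter on dim probes, the median over probes, the brightest probe and, both chosen after seeing the data, local centring over 21 surface blocks and leaving out background outlier flags too. The last setting left out 2875 probes and gave 1494 identifiers 2-fold higher and 1229 lower, and 46 and 2 at 16-fold. Under normexp correction all 8 moved. There were 566 identifiers 2-fold higher and 136 lower, 121 and 6 at 4-fold, 39 and 0 at 16-fold, and 32 and 7 with every probe past 2-fold. The normexp setting adds an offset of 50, which by construction draws dim ratios toward 0. For scale, the median processed signal was 11.3 at 5 days, although normexp was run on median spot signals instead. With dim probes at their own value 933 were 4-fold higher and 405 lower, and 114 and 19 were 16-fold higher and lower. Detection on both arrays gave 314 and 91 at 4-fold and 1 at 16-fold lower. Local background removed by subtraction, also chosen after seeing the data, gave 300 at 4-fold lower and 5 at 16-fold lower. Spike-in scaling gave 41 with every probe past 2-fold lower, and keeping outlier spots gave 11 at 16-fold lower, and the cause was not tested. Of identifiers with a mean level above the 75th percentile 5.93% were 2-fold higher, and 0.433% were 4-fold lower. Of identifiers of any level, 1.44% were 4-fold lower in columns 1 to 42 and 0.299% in columns 43 to 85. The ratios of the 4 named identifiers kept their direction under each setting that gave a value, from 2.95 to 7.32 for NM_001039969, 2.98 to 7.09 for CR389677, -4.70 to -1.47 for NM_205336 and -4.19 to -1.29 for NM_205366, with the smallest sizes under normexp correction.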
